A study of Mus musculus with 12 samples.

Results

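The p53 pathway was followed through 10 genes in the irradiated mouse brain, namely *Cdkn1a*, which encodes p21, *Trp53*, which encodes p53 itself, and 8 further direct p53 targets (*Mdm2*, *Ccng1*, *Bax*, *Phlda3*, *Gadd45a*, *Sesn2*, *Eda2r* and *Zmat3*). The genes were taken by symbol, and all 10 were found among the 23183 symbols listed for each library. *Cdkn1a* RNA was higher after irradiation in both tissues, at 2.46 times the mean of the controls in the cortex and 2.91 times in the hippocampus. None of the 8 other genes that could be tested passed the test across all genes in either tissue, and *Eda2r* was too low to be tested.

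Male C57BL/6 mice, 7 weeks old when purchased and acclimatized for 1 week, received a single 10 Gy dose to the whole brain (IR) or a sham exposure of 0 Gy (Con). RNA of the cortex and the hippocampus was sequenced 3 months later in 3 Con and 3 IR libraries per tissue, 12 in all. The labels do not say which of the 10 mice per group gave a library, whether animals were pooled, or whether both tissues came from the same mice. The p-values therefore measure the spread between these libraries, which may be technical.

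p53 is a transcription factor that is held at a low level by MDM2 and accumulates as a protein after DNA damage. It then binds a pair of 10-base decamers near its target genes and raises their transcription, which halts the cell cycle, aids repair or triggers apoptosis. p21 is the best known of these products, a protein that inhibits cyclin-dependent kinases and is used as a marker of lasting growth arrest, including in cells that no longer divide.

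The stretches of genome before the start sites of these genes are shown because p53 acts on its targets through such DNA. RefSeq start sites on GRCm38, the assembly that mm10 names, were found for 9 of the 10 genes (not for *Zmat3*), with 10 windows of 250 bases before to 50 bases after a start. The search used the p53 consensus decamer, which reads alike on both strands, with no mismatch allowed. It was found in the windows of 6 of the 9 genes (*Cdkn1a*, *Trp53*, *Mdm2*, *Ccng1*, *Bax* and *Gadd45a*), and in 8.36% of all 32851 windows. A pair of decamers up to 13 bases apart with at most 3 mismatches and an intact core was found for *Cdkn1a*, *Trp53* and *Bax*, and in 6.72% of all windows. A match describes the letters only, and no binding was measured.

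*Cdkn1a* spans chr17:29090976-29100727 on GRCm38 in GENCODE M21, and *AC167363.2* overlaps it on the opposite strand. It has 2 start sites in RefSeq, 2790 bases apart on the plus strand. The 250 bases before each start are given 5′ to 3′, with the bases of matched p53 decamers in capitals. The first stretch, chr17:29090729-29090978, holds the pair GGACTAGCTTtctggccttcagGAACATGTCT with 0 mismatches, and, overlapping it, the pair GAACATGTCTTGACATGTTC with 1 mismatch. The second stretch, chr17:29093519-29093768, holds no decamer match.
Cdkn1a, first start: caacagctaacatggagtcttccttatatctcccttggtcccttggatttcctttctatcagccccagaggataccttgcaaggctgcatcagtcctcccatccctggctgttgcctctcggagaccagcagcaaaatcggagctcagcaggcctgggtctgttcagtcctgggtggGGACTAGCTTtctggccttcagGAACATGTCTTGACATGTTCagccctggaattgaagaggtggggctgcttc
Cdkn1a, second start: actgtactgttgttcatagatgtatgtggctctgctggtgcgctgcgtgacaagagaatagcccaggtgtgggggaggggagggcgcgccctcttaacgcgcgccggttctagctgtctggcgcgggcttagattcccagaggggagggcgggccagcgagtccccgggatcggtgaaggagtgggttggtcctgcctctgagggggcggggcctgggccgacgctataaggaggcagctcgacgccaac

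Decamers in the windows of 4 targets are shown for comparison with those of *Cdkn1a*, in 50-base stretches with the decamer in capitals and the gene's own strand printed, the minus strand for all 4. The stretch of *Mdm2* is chr10:117710915-117710964, that of *Ccng1* chr11:40755442-40755491, that of *Bax* chr7:45467070-45467119 and that of *Gadd45a* chr6:67037418-67037467. In GENCODE M21, *E230016M11Rik* overlaps *Gadd45a* on the opposite strand. On the same strand, *Gm45808* overlaps *Bax* and *Gm12981* overlaps *Sesn2*. Reads of these pairs may not be told apart.
Mdm2: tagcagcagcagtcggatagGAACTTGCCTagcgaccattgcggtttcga
Ccng1: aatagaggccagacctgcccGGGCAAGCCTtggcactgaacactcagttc
Bax: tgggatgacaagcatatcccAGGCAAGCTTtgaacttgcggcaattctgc
Gadd45a: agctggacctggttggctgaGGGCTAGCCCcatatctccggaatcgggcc

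Expression is given in FPKM, the fragments of a gene divided by its transcript length and by the fragments of the library, as the authors deposited it. FPKM hold no counts, so read depth is unknown and the counting error cannot be stated. FPKM summed to 359773 to 393447 per library, and no pair of libraries held identical values. Markers of the cortex summed to 133.7 to 151.5 FPKM in the cortex Con libraries and 42.4 to 49.9 FPKM in the hippocampus Con libraries. Markers of the hippocampus summed to 27.8 to 48.6 and 133.7 to 148.6 FPKM in the same groups, so the tissue labels held. The data columns are named differently for the 2 tissues and no label says why, so if the tissues were processed apart, that cannot be told apart from a difference between regions.

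Without irradiation the genes differed widely in level. In the cortex Con libraries the order per length was *Bax* (28.8 FPKM on average), *Ccng1* (24.9), *Zmat3* (15.8), *Mdm2* (13.9), *Phlda3* (13.8), *Trp53* (8.85), *Cdkn1a* (6.01), *Gadd45a* (3.90), *Sesn2* (3.87) and *Eda2r* (0.0804). The neighbours *Bax* and *Ccng1*, *Mdm2* and *Phlda3*, and *Gadd45a* and *Sesn2* overlapped between libraries, and the other neighbours did not. *Cdkn1a* stood at place 7 of 10 in the cortex Con libraries and at place 9 in the hippocampus Con libraries, where its values overlapped those of *Gadd45a*. In the IR libraries it stood at place 6 in the cortex, overlapping *Mdm2*, and at place 8 in the hippocampus, overlapping *Sesn2*.

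*Cdkn1a*, the inhibitor of cyclin-dependent kinases, was the gene of this group that changed most. In the cortex it was 5.67, 6.32 and 6.03 FPKM in the Con libraries and 14.8, 12.7 and 16.8 FPKM in the IR libraries. Every IR library was above every Con library, and the lowest IR value was more than 6 FPKM above the highest Con value. The means were 6.01 ± 0.330 and 14.8 ± 2.06 FPKM (SD, n = 3).

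In the hippocampus *Cdkn1a* was 2.27, 2.09 and 2.00 FPKM in the Con libraries and 6.25, 6.06 and 6.23 FPKM in the IR libraries. The groups again did not overlap, and the 3 IR libraries lay close together. The means were 2.12 ± 0.136 and 6.18 ± 0.1003 FPKM (SD, n = 3). The irradiated hippocampus thus reached the level of the sham-irradiated cortex, since its 3 IR values all fell between the lowest and the highest cortex Con value.

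**Figure D1:**
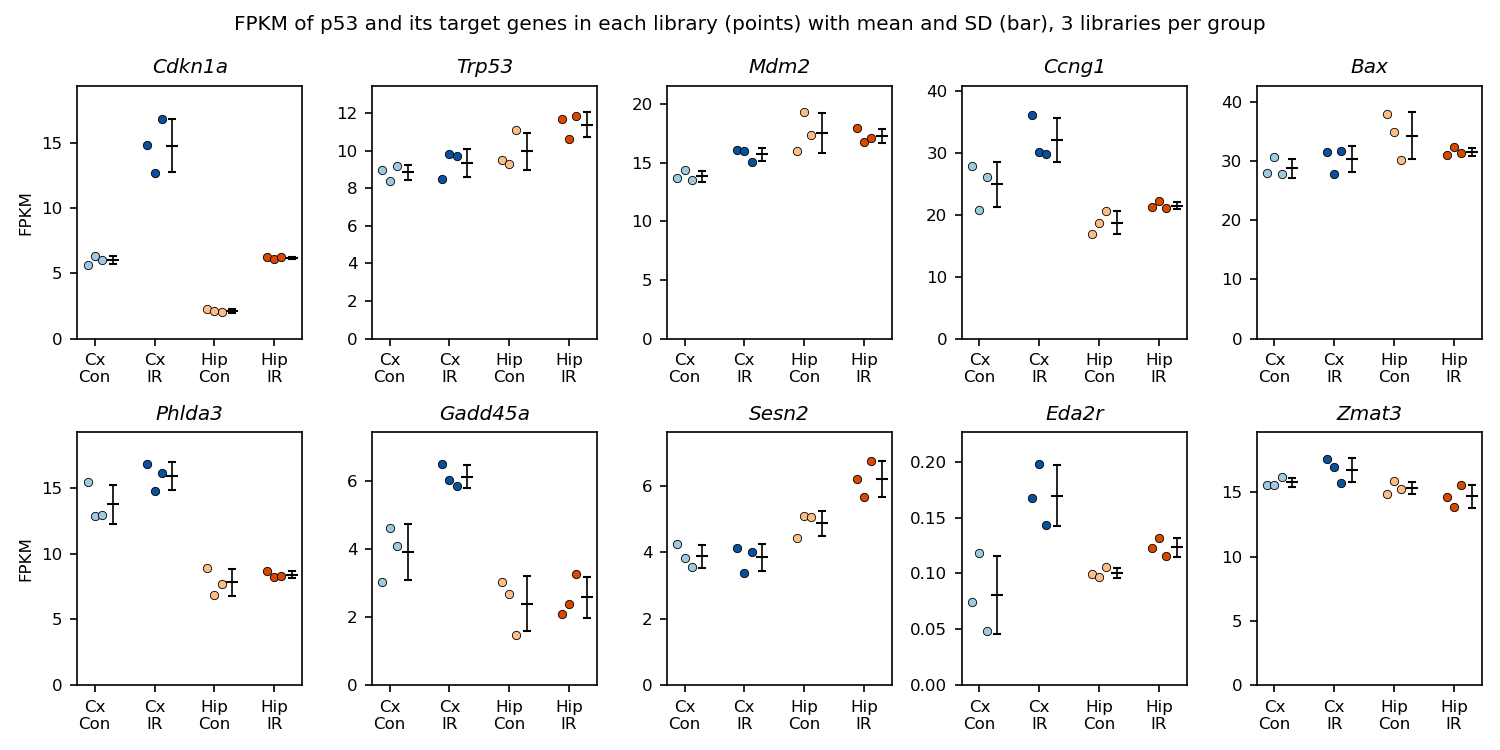
FPKM of the 10 genes in each of the 12 libraries, 1 panel per gene, with points for libraries and, beside them, the mean and SD of each group of 3 (Cx, cortex; Hip, hippocampus). The *Cdkn1a* panel shows 12.7 to 16.8 FPKM in the irradiated cortex against 5.67 to 6.32 in its controls. The Con and IR ranges of *Trp53*, *Bax*, *Phlda3* and *Zmat3* overlap in both tissues.

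The genes were tested with limma on log2(FPKM + 1) in each tissue, over all genes that reached 0.5 FPKM in 3 or more of its 6 libraries, and a call needs an adjusted p under 0.05. Differences on this scale understate the change of low genes. The log2 difference of *Cdkn1a* between IR and Con was 1.16 ± 0.0940 (SE) in the cortex, with a 95% interval of 0.95 to 1.37 and an adjusted p of 0.000947 from limma. Ordered from the highest log2 difference to the lowest, it stood at place 5 of 14065 genes. In the hippocampus the log2 difference was 1.20 ± 0.0765 (SE), with a 95% interval of 1.03 to 1.38, an adjusted p of 0.00175 from limma and place 4 of 14043 in that order. Over the 12 libraries with tissue as a term, the *Cdkn1a* difference was 1.18 ± 0.0607 (SE), with an adjusted p of 2.09e-07 from limma. Its place in the same order was 3 of 14459. That fit took the 12 libraries as independent, which would not hold if both tissues came from the same mice. An exact permutation test of 3 against 3 libraries cannot go below 0.1, so it was not used.

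The share of all tested genes that passed was 0.725% in the cortex, 0.0285% in the hippocampus and 1.29% over the 12 libraries, and in each case *Cdkn1a* was the 1 gene that passed of the 9 members tested. The number of genes called by limma depended on single libraries. The 102 calls in the cortex became 17 to 77, and were more than 1.5 times fewer without any library other than cortex Con 2. The 4 calls in the hippocampus became 861 without hippocampus Con 3, and 2 without hippocampus Con 1, IR 1 or IR 3. Over both tissues the 187 calls became 345 without hippocampus Con 3 and 15 to 131 without any other library, the 131 without hippocampus IR 2. In bulk tissue, fewer cells of a type and less RNA per cell cannot be told apart, and the same holds for more.

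*Trp53*, the gene of p53 itself, did not pass in either tissue. The cortex Con libraries held 8.41 to 9.19 FPKM and the IR libraries 8.52 to 9.83 FPKM, and the groups overlapped. The log2 difference of *Trp53* there was 0.07, with a 95% interval of -0.09 to 0.23 and an adjusted p of 0.715 from limma. Hippocampal *Trp53* ranged over 9.28 to 11.1 FPKM in Con and over 10.6 to 11.8 FPKM in IR, with a log2 difference of 0.18 and an adjusted p of 0.384 from limma. p53 is controlled mainly as a protein, which was not measured.

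*Mdm2*, the ubiquitin ligase that restrains p53 and is itself a p53 target, was 13.7, 14.4 and 13.5 FPKM in the cortex Con libraries and 16.1, 16.0 and 15.1 FPKM in the IR libraries. The 2 groups did not overlap, but the log2 difference of 0.17 had an adjusted p of 0.240 from limma. Hippocampal *Mdm2* ranged over 16.0 to 19.3 FPKM in Con and over 16.8 to 17.9 FPKM in IR, so the IR range lay within the Con range.

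*Ccng1* encodes cyclin G1, a p53 target that takes part in the feedback on p53. In the cortex it was 27.9, 20.8 and 26.1 FPKM in the Con libraries and 36.1, 30.2 and 29.8 FPKM in the IR libraries. In the hippocampus it was 16.8, 18.7 and 20.6 FPKM in the Con libraries and 21.2, 22.2 and 21.1 FPKM in the IR libraries. *Ccng1* was thus the other tested member besides *Cdkn1a* whose IR libraries lay above the Con libraries in both tissues, an arrangement found for 2.41% of the 14459 genes. Its log2 difference was 0.35 in the cortex, with an adjusted p of 0.200, and 0.20 in the hippocampus, with an adjusted p of 0.345 from limma. Over the 12 libraries the log2 difference of *Ccng1* was 0.28 and its adjusted p 0.0836 from limma, which ranged from 0.0463 without hippocampus Con 3 to 0.170 without cortex IR 1.

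*Gadd45a*, a stress protein of growth arrest and DNA repair, was among the lower genes in both tissues. In the cortex it was 3.01, 4.61 and 4.08 FPKM in the Con libraries and 6.49, 6.01 and 5.83 FPKM in the IR libraries, without overlap. In the hippocampus it was 3.02, 2.67 and 1.47 FPKM in the Con libraries and 2.09, 2.37 and 3.25 FPKM in the IR libraries, and the groups overlapped. The cortical log2 difference was 0.55 ± 0.118 (SE), a ratio of means of 1.57, with an unadjusted p of 0.000956 and an adjusted p of 0.0810 from limma. With a cortical library left out the adjusted p ranged from 0.0482 without cortex Con 2, the highest control, to 0.310 without cortex IR 1, and the log2 difference from 0.41 to 0.65. The hippocampal log2 difference of *Gadd45a* was 0.09, with a 95% interval of -0.36 to 0.55. The difference between the tissues did not pass either, at -0.46 with an adjusted p of 0.539 from limma.

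*Sesn2* encodes a sestrin, a stress protein that restrains mTORC1 signalling. In the cortex it was 4.25, 3.81 and 3.54 FPKM in the Con libraries and 4.14, 3.38 and 4.01 FPKM in the IR libraries, and the groups overlapped. In the hippocampus it was 4.43, 5.10 and 5.07 FPKM in the Con libraries and 6.20, 5.65 and 6.74 FPKM in the IR libraries, without overlap. The hippocampal log2 difference of *Sesn2* was 0.29, with an unadjusted p of 0.0105 and an adjusted p of 0.278 from limma. Its difference between the tissues was 0.30, with an unadjusted p of 0.0361 and an adjusted p of 0.452 from limma.

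In the remaining 3 targets the Con and IR libraries overlapped in both tissues, and no adjusted p from limma was under 0.05. *Phlda3*, a pleckstrin-homology protein that opposes Akt, was 12.9 to 15.5 FPKM in Con against 14.8 to 16.9 FPKM in IR in the cortex, and 6.89 to 8.90 and 8.23 to 8.69 FPKM in the hippocampus. The log2 difference of *Phlda3* was 0.20 in the cortex, with an unadjusted p of 0.0346 and an adjusted p of 0.314 from limma, and 0.10 in the hippocampus. *Bax*, which permeabilizes the mitochondrial membrane in apoptosis, was 27.8 to 30.7 FPKM in Con against 27.9 to 31.7 FPKM in IR in the cortex, and 30.1 to 37.9 and 31.1 to 32.3 FPKM in the hippocampus. *Zmat3*, a zinc-finger protein that binds RNA, was 15.6 to 16.2 FPKM in Con against 15.7 to 17.6 FPKM in IR in the cortex, and 14.9 to 15.9 and 13.8 to 15.6 FPKM in the hippocampus. *Bax* had log2 differences of 0.07 (cortex) and -0.11 (hippocampus), and *Zmat3* of 0.08 and -0.06.

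*Eda2r*, a receptor of the tumor necrosis factor receptor family that binds ectodysplasin A2, was far lower than the rest. In the cortex it was 0.0746, 0.118 and 0.0486 FPKM in the Con libraries and 0.168, 0.198 and 0.144 FPKM in the IR libraries. In the hippocampus it was 0.0995, 0.0967 and 0.105 FPKM in the Con libraries and 0.123, 0.132 and 0.115 FPKM in the IR libraries. The IR libraries lay above the Con libraries in both tissues, with ratios of means of 2.11 and 1.23. Of the 1320 genes above 0 in all 12 libraries but under the filter, 0.833% showed this arrangement. Without the filter, *Eda2r* had an adjusted p of 0.351 in the cortex and 0.745 in the hippocampus from limma.

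Counted together, 8 of the 9 tested members were higher in IR in the cortex, against 50.5% of all genes. Their median log2 difference was 0.17, against 0.0016 over all genes. In the hippocampus 6 of 9 were higher, against 47.3% of all genes, with a median of 0.10 against -0.0100 over all genes. At an unadjusted p under 0.05, 5 cortical and 3 hippocampal members were higher, against 8.16% and 7.06% of all genes. IR libraries lay above Con libraries without overlap for 4 of the 9 in the cortex (*Cdkn1a*, *Mdm2*, *Ccng1* and *Gadd45a*) and 3 in the hippocampus (*Cdkn1a*, *Ccng1* and *Sesn2*), against 11.2% and 10.5% of all genes. These counts describe genes chosen with earlier results of the same libraries known.

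**Figure D2:**
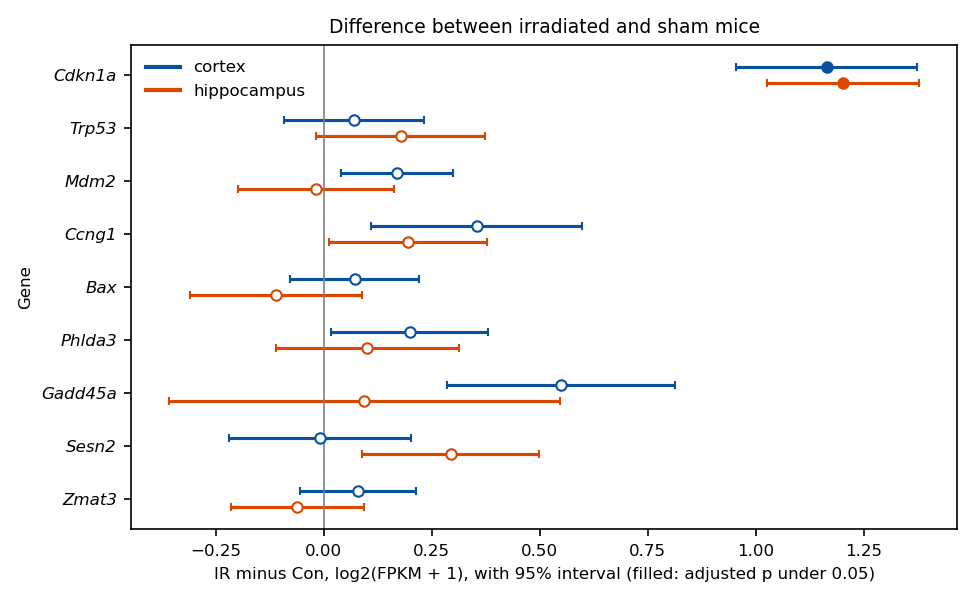
Log2 difference of IR against Con on the log2(FPKM + 1) scale for the 9 tested members in the cortex and the hippocampus, with 95% intervals from limma. *Cdkn1a* stands at 1.16 and 1.20, and the other members lie between -0.11 and 0.55.

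**Figure D3:**
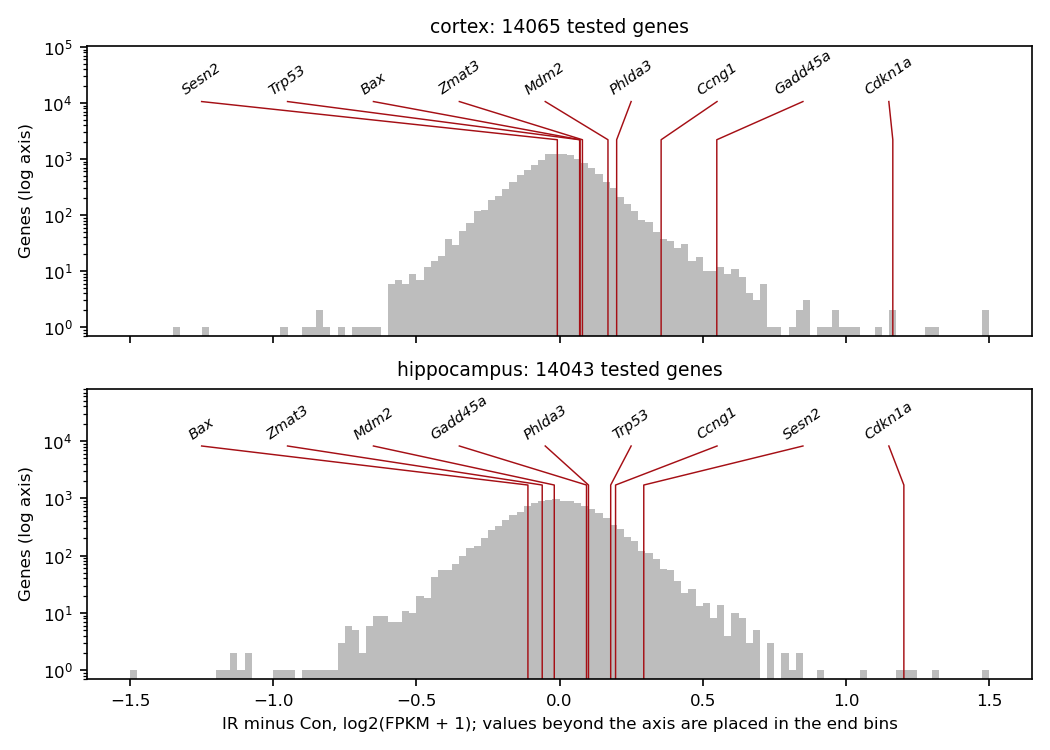
Number of tested genes (log axis) by their difference of IR minus Con in log2(FPKM + 1), in the cortex and the hippocampus, with lines at the 9 tested members and values beyond the axis placed in the end bins. The bulk of the genes lies around 0, and *Cdkn1a* lies at the upper edge in both tissues.

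The response of *Cdkn1a* was compared directly between the tissues. Its interaction of irradiation and tissue was 0.04 on the log2(FPKM + 1) scale, with a 95% interval of -0.23 to 0.31 and an adjusted p of 0.937 from limma. With a pseudocount of 0.1 in place of 1, which weighs low values more, the interaction was 0.22 with an adjusted p of 0.588 from limma. A difference in response between cortex and hippocampus was thus not detected, and differences within that interval remain possible. None of the 9 members passed the interaction test in limma, where 0.083% of all genes did (12 genes, which became 487 without hippocampus Con 3, 11 without hippocampus IR 3 and 0 to 7 without any other library), and *Sesn2* was the 1 member at an unadjusted p under 0.05, where 10.4% of all genes were.

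The members were also compared between the regions, within the limits on processing and on shared mice given above. Between hippocampus and cortex, 7 of the 9 tested members passed in Con and 7 in IR, where 44.2% and 41.5% of all genes passed. In Con, *Cdkn1a* was lower in the hippocampus by a log2 difference of -1.17, with an adjusted p of 1.97e-07 from limma. *Phlda3* (-0.75), *Gadd45a* (-0.55) and *Ccng1* (-0.39) were lower there as well, and *Mdm2* (0.32), *Sesn2* (0.27) and *Bax* (0.24) were higher.

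In IR the difference of *Cdkn1a* was -1.13, with an adjusted p of 2.59e-07 from limma. *Gadd45a* (-1.01), *Phlda3* (-0.84), *Ccng1* (-0.55) and *Zmat3* (-0.18) were lower in the irradiated hippocampus than in the irradiated cortex, and *Sesn2* (0.57) and *Trp53* (0.26) were higher. *Bax* and *Mdm2* passed in Con and not in IR, and *Trp53* and *Zmat3* passed in IR and not in Con, but none of these 4 passed the interaction test. Some of these calls rested on single libraries or on the fit. From the 6 Con libraries alone 4 members passed, and *Bax*, *Gadd45a* and *Sesn2* no longer did (adjusted p of 0.0732, 0.0510 and 0.0544 from limma). In Con, *Bax* no longer passed without any 1 of cortex Con 1, cortex Con 3, hippocampus Con 1 and hippocampus Con 2 (adjusted p of up to 0.111 from limma). *Gadd45a* no longer passed without cortex Con 2, cortex Con 3 or hippocampus Con 3 (up to 0.0915), nor *Sesn2* without number 2 or 3 of either tissue (up to 0.105). In IR, *Trp53* no longer passed without cortex IR 1, hippocampus IR 1 or hippocampus IR 3 (up to 0.0894), nor *Zmat3* without number 1 or 2 of either tissue (up to 0.133). The calls of *Cdkn1a*, *Phlda3* and *Ccng1* held in both groups with each library left out in turn.

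**Figure D4:**
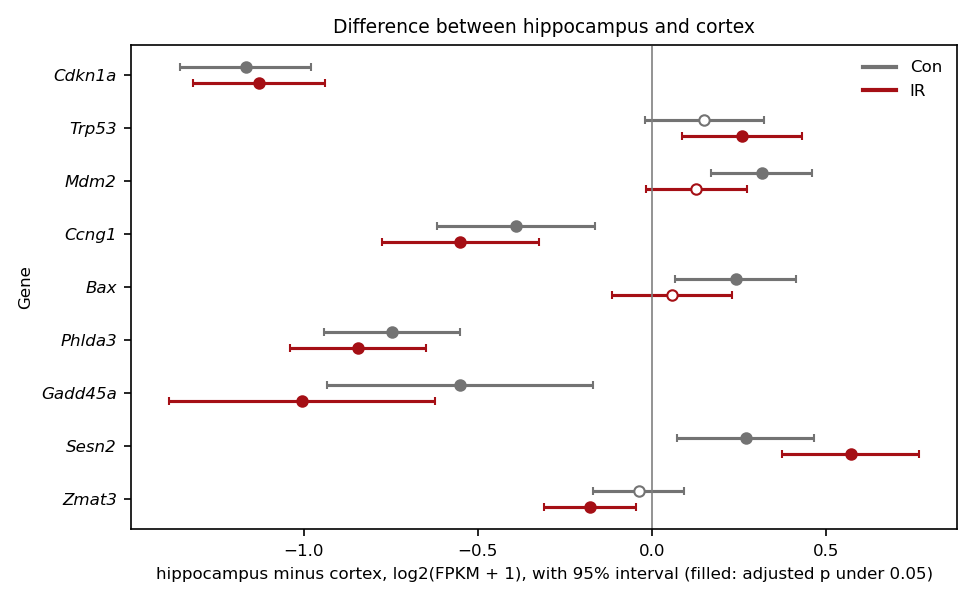
Log2 difference of hippocampus against cortex on the log2(FPKM + 1) scale for the 9 tested members in Con and in IR, with 95% intervals from limma. *Cdkn1a* and *Phlda3* lie well below 0 in both groups, and *Sesn2* lies above 0.

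Genes around the pathway were read from 5 lists. Of 35 other p53 targets, 17 of the 30 tested in cortex were higher in IR, and 14 of the 28 tested in hippocampus. *Plk3*, a stress-activated polo-like kinase, passed in the cortex, with 5.20 ± 0.635 FPKM for Con against 7.92 ± 0.627 FPKM for IR (SD, n = 3), a log2 difference of 0.53 with an adjusted p of 0.0397 from limma. That call was lost when any library other than cortex Con 3 was left out, with adjusted p-values of up to 0.128. None of this list passed in the hippocampus in limma, where 5 of its genes and 13.9% of all genes had an unadjusted p under 0.05. The largest log2 differences there were those of *Psrc1* (0.34), *Pml* (0.32) and *Plk2* (-0.30), and *Pml* and *Plk2* were among the 5.

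p21 acts by binding cyclins, their kinases and PCNA, the clamp of DNA replication. Of 11 such partners, 9 were tested in each tissue. *Ccnd1*, which encodes cyclin D1, passed in the cortex with 10.6 ± 1.15 FPKM for Con against 14.8 ± 1.06 FPKM for IR (SD, n = 3), a log2 difference of 0.46 with an adjusted p of 0.0466 from limma. The call was lost whichever of the 6 cortical libraries was left out, with adjusted p-values of 0.0566 to 0.222. *Ccne2*, which encodes cyclin E2 and is named here after its values were seen, lay the other way in the cortex, at 1.02 to 1.18 FPKM in Con against 0.459 to 0.653 FPKM in IR without overlap. Its log2 difference was -0.41, with an unadjusted p of 0.0017 and an adjusted p of 0.1003 from limma. In the hippocampus *Ccnd2* (0.29), *Ccnd3* (0.24) and *Pcna* (-0.23) had the largest log2 differences, with adjusted p-values of 0.257, 0.421 and 0.312 from limma.

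The other 3 lists held no gene that passed in limma in either tissue. The genes named for them are the 3 with the largest log2 difference in each tissue. Among 17 regulators of p53, 9 of 14 tested were higher in the cortex and 6 of 15 in the hippocampus. In the cortex these were *Cop1* (0.25), a ubiquitin ligase of p53 listed as *Rfwd2*, and the p53-binding proteins *Trp53bp2* (-0.17) and *Ppp1r13l* (0.16). In the hippocampus they were *Trp53bp2* (-0.22), *Ppp1r13l* (0.19) and the acetyltransferase *Crebbp* (0.17).

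Among 17 paralogs of the members, 8 of 13 were higher in the cortex and 12 of 15 in the hippocampus. The largest cortical differences were those of *Phlda1* (0.25), *Bak1* (-0.25) and *Zmat1* (-0.24), and the hippocampal ones those of *Gadd45b* (0.28), *Trp73* (0.20) and *Sesn1* (0.19). Among 14 genes of the BCL2 family, which decide on apoptosis, 6 of 13 were higher in the cortex and 6 of 12 in the hippocampus. Here the cortical differences were led by the death genes *Bbc3* (-0.27), *Bak1* (-0.25) and *Hrk* (-0.25), and the hippocampal ones by the death agonist *Bid* (0.41), the survival gene *Bcl2l2* (-0.22) and the death agonist *Bad* (-0.19). The lowest adjusted p among the genes named from these 3 lists was 0.138, for *Bak1* in the cortex in limma.

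**Figure D5:**
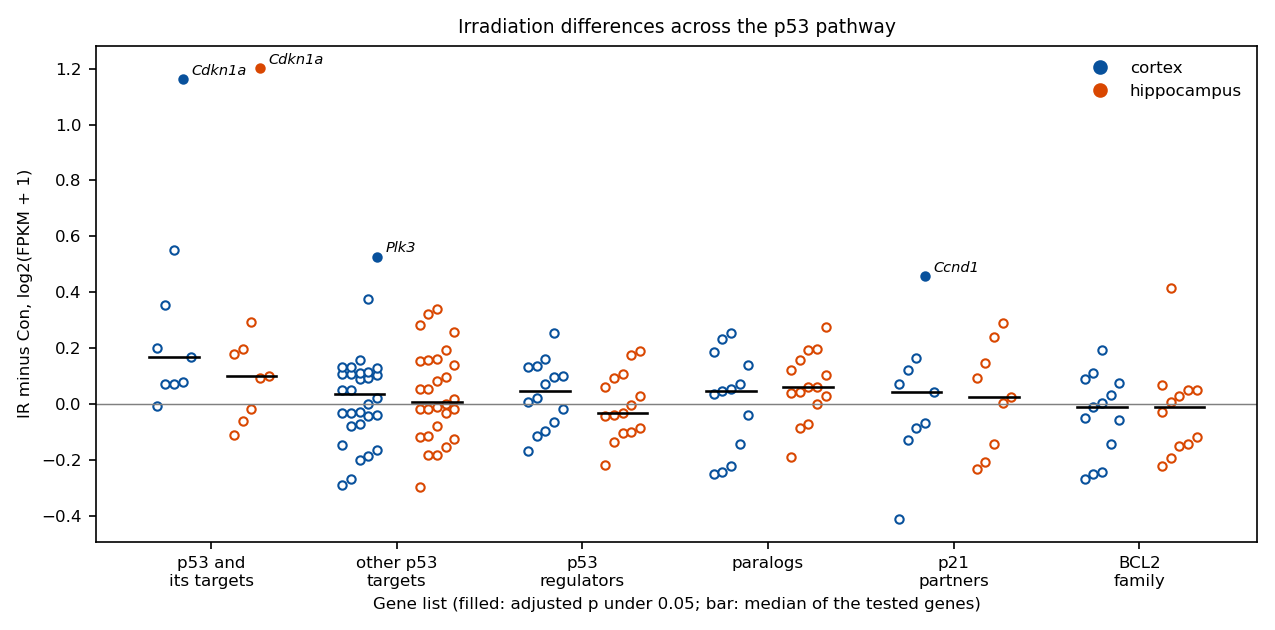
Log2 difference of IR against Con for every tested gene of the 5 lists in the cortex and the hippocampus, 1 point per gene, with the 9 tested members at the left, filled points for an adjusted p under 0.05 and bars for medians. The points of the 5 lists lie on both sides of 0, and *Plk3* and *Ccnd1* are the 2 that passed in the cortex.

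Marker lists of cell types were summed in the same libraries. All 6 microglial markers were lower in IR in both tissues, though 0 passed in the cortex and 1 in the hippocampus in limma. Their sum was 105.1 to 110.5 FPKM in Con against 71.7 to 101.7 FPKM in IR in the cortex, and 103.8 to 114.2 against 74.2 to 81.2 FPKM in the hippocampus. Endothelial markers were higher in 4 of 6 in both tissues, with sums of 56.0 to 65.1 FPKM in Con against 65.2 to 77.1 FPKM in IR in the cortex, and 49.4 to 55.4 against 59.8 to 62.7 FPKM in the hippocampus. Oligodendrocyte markers were higher in 6 of 6 cases in the cortex and in 2 of 6 in the hippocampus, with sums of 1050 to 1302 FPKM in Con against 1306 to 1583 FPKM in IR in the cortex, and 1072 to 1308 against 1001 to 1265 FPKM in the hippocampus. No marker of these 3 lists was at 0 in any library. Astrocyte markers were lower in 4 of 6 in the cortex and 6 of 6 in the hippocampus, where 0 passed in limma, with sums there of 683 to 779.3 FPKM in Con against 649.3 to 700.5 FPKM in IR. In the hippocampus an unadjusted p under 0.05 from limma was held by 5 of 6 microglial, 3 of 6 astrocyte and 2 of 6 oligodendrocyte markers, all lower in IR. It was held there by 2 of 6 endothelial markers, which were higher, and by 13.9% of all genes. In the cortex it was held by 3 of 6 microglial markers, which were lower. The same held for 3 of 6 oligodendrocyte and 2 of 6 endothelial markers, which were higher, and for 1983 of all 14065 genes. Choroid plexus markers varied widely between libraries, at 3.47 to 30.01 FPKM in Con against 15.8 to 438.3 FPKM in IR in the cortex, and 22.7 to 1058 against 23.8 to 1645 FPKM in the hippocampus. Proliferation markers, of which 1 of 5 reached the filter, summed to 0.815 to 1.70 FPKM in Con against 0.800 to 1.32 FPKM in IR in the cortex, and 1.37 to 3.02 against 0.925 to 1.34 FPKM in the hippocampus. Within the hippocampus Con sums, *Ube2c* alone ranged over 0.0815 to 2.09 FPKM. The sums for oligodendrocyte precursors were 54.3 to 58.1 FPKM in Con against 55.8 to 62.7 FPKM in IR in the cortex, and 65.3 to 67.7 against 59.0 to 64.5 FPKM in the hippocampus. The part of these cells in the *Cdkn1a* difference was not tested.

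Among the genes whose pattern over the 12 libraries was most like that of *Cdkn1a*, of 14458 by Pearson correlation of log2(FPKM + 1), were *Sgsm1* (0.971), *A330023F24Rik* (0.967), *Gatsl2* (0.955) and *Lime1* (0.945). *Sgsm1*, for instance, was 21.9 ± 1.01 and 33.0 ± 1.40 FPKM in the cortex and 17.2 ± 0.894 and 22.4 ± 1.08 FPKM in the hippocampus, in Con and IR (SD, n = 3). Of the other members, *Ccng1* (0.851), *Gadd45a* (0.806) and *Phlda3* (0.794) had the highest correlation with *Cdkn1a*, and *Bax* the lowest (-0.433). All these values share the split by region and by treatment among the 12 libraries and are descriptions.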

How the data were processed

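RNA of 12 libraries, 3 Con and 3 IR per tissue, was measured by RNA-seq. The authors trimmed reads with FASTX_Trimmer and BBMap, aligned them with TopHat to mm10, and deposited FPKM from Cufflinks after a geometric normalization in edgeR. Tool versions, the annotation and the use of strand in counting are not given in the sources used here. The methods name an RNeasy kit with poly(A) selection and the labels Trizol and total RNA. A gene antisense to *Cdkn1a* or *Gadd45a*, or on the same strand as *Bax* or *Sesn2*, may share reads with it.

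Groups came from the labels. Genes of at least 0.5 FPKM in at least 3 of 6 libraries were fitted on log2(FPKM + 1) with limma 3.58.1 in R 4.3.3 (trend, robust), adjusted by Benjamini-Hochberg over all tested genes. Comparisons between regions and the interaction used 12 libraries in 4 groups, taken as independent. The fit was tested on simulated data. Sequences came from RefSeq tables (GRCm38.p6). Python 3.11.15 searched the sequences and drew the plots (matplotlib 3.10.9). The members, lists and tests were chosen with earlier results of these data known. Named were all members, list genes with an adjusted p under 0.05 or otherwise among the 3 largest differences per list and tissue, and the 5 genes most like *Cdkn1a*, of which 1 is not reported here. Alternatives were other filters, pseudocounts and normalizations, limma without trend, a fold rule of 1.5, a library number block, and leaving out each library.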

Additional observations from a re-analysis of the deposited data

How the results depend on the processing

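*Cdkn1a* kept its direction and its call in each tissue under every alternative except the replicate block in the hippocampus, where its log2 difference of 1.20 had an adjusted p of 0.0772 from limma and 0 members were called. The labels do not say whether the numbers of the libraries pair them. Same-numbered Con and IR libraries deviated together with correlations of -0.105 to 0.107 in the cortex and -0.392 to -0.0824 in the hippocampus. For same-numbered cortex and hippocampus libraries they were -0.0361 to 0.173 in Con and -0.0826 to 0.116 in IR. Not every library correlated best with its own number, but with 3 libraries per group such values cannot decide whether a pairing exists. The block changed the calls over all genes from 102 to 71 in the cortex and from 4 to 1 in the hippocampus, and for the interaction from 12 to 19. With a library left out, *Cdkn1a* ranged from 1.07 to 1.26 in the cortex (adjusted p 0.000559 to 0.0154 from limma) and from 1.18 to 1.24 in the hippocampus (0.00445 to 0.0347), and members called ranged from 1 to 2 in the cortex, 1 to 1 in the hippocampus, 1 to 2 over both tissues, 4 to 7 between regions in Con and 5 to 7 in IR. Members called between regions were 4 in Con from its 6 libraries alone, and 2 in Con and 3 in IR when a fold of 1.5 and an unadjusted p under 0.05 were asked, a rule met by 13.8% of all genes in each. Differences near 0 changed sign only with a library left out: *Sesn2* in the cortex (-0.0571 to 0.0628), *Mdm2* in the hippocampus (-0.0799 to 0.0489), *Gadd45a* there (-0.118 to 0.234), *Zmat3* (-0.0129 to 0.0348) and *Bax* (-0.0487 to 0.0230) over both tissues, and the *Cdkn1a* interaction (-0.0594 to 0.130). *Plk3* also lost its call without a filter (adjusted p 0.0954), without trend (0.0765) and with 12 libraries in 1 fit (0.0843), and *Ccnd1* without a filter (0.124), with quantile normalization (0.0705) and without trend (0.104). The cause was not tested in any of these cases. The depth is unknown, which limits what can be said of low genes such as *Eda2r*.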
